A study of Mus musculus with 8 samples.

Results

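The proteasome genes of mouse liver were followed across 4 treatments: SLIT2 with acetaminophen (APAP), APAP alone, SLIT2 alone and a PBS control. Members were all protein-coding genes whose symbol begins with Psma, Psmb, Psmc, Psmd, Psme, Psmf or Psmg and a digit. The mouse annotation holds 50 such symbols, and 48 of them were in the count table of 23006 gene identifiers. All 48 passed the filter on low counts, among 16876 genes tested. Psmb9 and Psmg4 were not analysed here. The symbol alone decided membership, but the family itself was taken up with earlier results of these data known, so its counts below describe the family and are not independent support for any direction. Psmc3ip matches by name only and is not a proteasome subunit, so it is counted among the 48 but described with no class.

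The proteasome degrades proteins tagged with ubiquitin. Its core particle is a barrel of alpha rings, which gate the entrance, and beta rings, which hold the proteolytic sites. The regulatory particle caps the barrel. Its ring of ATPases (Psmc genes) unfolds substrates and its non-ATPase subunits (Psmd genes) bind and remove ubiquitin. In the immunoproteasome the inducible subunits Psmb8, Psmb9 and Psmb10 replace Psmb5, Psmb6 and Psmb7 and favour peptides for antigen presentation. Activators of the Psme family are alternative caps, and assembly chaperones build the particles. When proteasome activity drops, the transcription factor NRF1 raises the transcription of the subunit genes together. In the liver, APAP is converted to a reactive metabolite that binds proteins of hepatocytes, and SLIT2 is a secreted ligand of the ROBO receptors.

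Each group had 2 libraries of liver RNA from wild-type (WT) mice. Mice given both agents received SLIT2 at 2 µg per mouse into the peritoneum for 3 days and APAP at 400 mg/kg. The APAP group received PBS and the same APAP dose. The SLIT2 group received SLIT2 alone at that dose, and the control group received PBS. Livers were taken 24 hours after APAP. The labels give no strain, sex or age for the mice, and do not state if replicates are different animals. The p-values below therefore measure the spread between these libraries, which may be technical. The smallest two-sided p of an exact permutation test on 2 and 2 libraries is 0.333, so tests came from a model over all genes.

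Total counts were 73.7 and 83.7 M in SLIT2+APAP libraries (1 M is 1000000 counts), 85.4 and 99.1 M in APAP, 63.3 and 60.8 M in SLIT2, and 95.4 and 100.5 M in control. The SLIT2 libraries stood apart. The 13 mitochondrially encoded genes took 60.2% and 69.0% of their counts, against 25.1% and 30.3% in SLIT2+APAP, 14.9% and 13.4% in APAP and 16.0% and 17.3% in control. Of 6 hepatocyte markers, 5 were measured, none of them at 0 in any library. Their summed level was 65001 and 64009 CPM in SLIT2+APAP, 99181 and 78678 CPM in APAP, 13687 and 7451 CPM in SLIT2, and 49073 and 69710 CPM in control (CPM is counts per 1000000 on TMM-scaled library sizes). Alb made up most of the sum in every library. Cps1 had 672 and 448 CPM in SLIT2+APAP, 943 and 1375 CPM in APAP and 1645 and 1389 CPM in control. In APAP against control its log2 fold change was -0.39. Those of Alb, Ttr, Apoa1 and Serpina1c were positive there, and none of the 5 was called. Neutrophil markers (6 of 6 measured, with Ly6g at 0 or 1 count in every library) summed to 6.70 and 7.71 CPM in SLIT2+APAP, 21.3 and 7.14 CPM in APAP, 32.0 and 28.5 CPM in SLIT2, and 3.04 and 3.73 CPM in control. They did not move together: Cxcr2 made up 26.8 and 26.3 CPM of the sum in SLIT2, while S100a9 had 1.31 and 0.398 CPM in SLIT2 and 0.691 and 0.746 CPM in control. In SLIT2+APAP against APAP Cxcr2 and Mpo rose and S100a9 fell. Skeletal muscle markers reached at most 1.11 CPM in the treated groups, against 627 and 68.6 CPM in the control libraries. Monocyte and macrophage markers (6 measured) summed to 21.7 and 20.1 CPM in SLIT2+APAP, 52.4 and 31.8 CPM in APAP, 9.05 and 8.73 CPM in SLIT2, and 27.6 and 34.6 CPM in control. Lyz2 made up 2.197 and 1.86 CPM of that sum in SLIT2 and 19.9 and 26.4 CPM in control, while Itgam had 1.25 and 1.90 CPM in SLIT2 and 0.965 and 1.01 CPM in control. Cholangiocyte markers (4 measured) summed to 7.53 and 7.78 CPM in SLIT2+APAP, 47.0 and 13.4 CPM in APAP, 19.2 and 28.4 CPM in SLIT2, and 8.22 and 9.23 CPM in control. Most of that sum in APAP and SLIT2 was Sox9, at 44.2 and 9.18 CPM in APAP and 14.9 and 20.7 CPM in SLIT2, while Epcam fell in SLIT2 against control (log2 fold change -2.42, edgeR adjusted p = 0.006469). The part of mitochondrial content and of these cell types in the results below was not tested. In bulk tissue, fewer cells of a type and less RNA per cell cannot be told apart.

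The members summed to 2604 and 2529 CPM in SLIT2+APAP, 3242 and 3199 CPM in APAP, 1390 and 1181 CPM in SLIT2, and 3418 and 3546 CPM in control. As a share of the counts outside the mitochondrially encoded genes they were at 0.377% and 0.424% in SLIT2+APAP, 0.357% and 0.384% in APAP, 0.375% and 0.346% in SLIT2, and 0.358% and 0.406% in control. On the first scale SLIT2 livers were lowest, while on the second each treated group overlapped the control libraries.

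**Figure D1:**
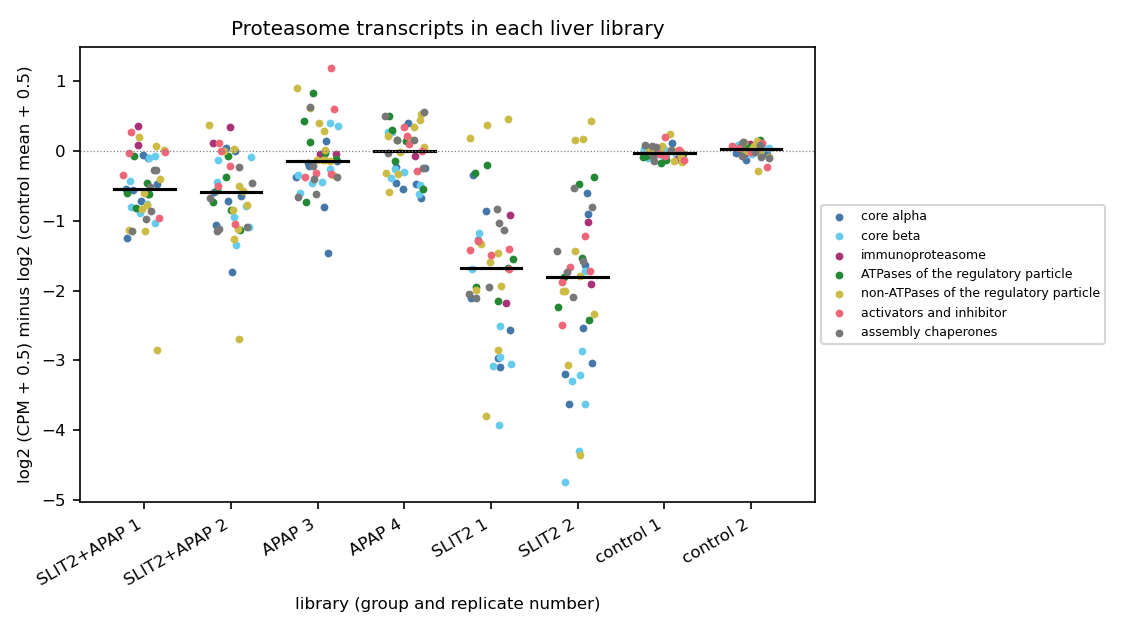
Log2 ratio of each member's CPM to its control mean (vertical axis, pseudocount 0.5) in each of the 8 libraries (horizontal axis), with 1 point per gene for the 43 members at or above 5 CPM in control and a black bar at the median. The SLIT2 libraries sit lowest and are the most spread out, with an SD of 1.03 and 1.22, while SLIT2+APAP libraries have medians of -0.54 and -0.58.

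Promoters are shown for 5 members on which the results turn. Psmd13, Psma5 and Psmd14 were the members called lower under TMM scaling in all 3 comparisons of SLIT2-treated livers. With libraries scaled to their counts outside the mitochondrially encoded genes, Psmd13 and Psma5 stayed called in all 3. Psmd14 was then not called in SLIT2+APAP against APAP (log2 fold change -0.55) or against control (-0.72). Psmb5 and its inducible counterpart Psmb8 form the pair used for the share of the immunoproteasome. Each window is RefSeq sequence on GRCm38.p6, from 250 bases before to 50 bases after a transcript start, written 5′ to 3′ on the gene's strand. Capitals mark matches, on either strand, to the searched motifs: the core of the antioxidant response element bound by NRF1 and NRF2 (TGACNNNGC), the interferon-gamma activated site (GAS, TTCNNNGAA), the interferon-stimulated response element (ISRE) and the CCAAT box.
Psmd13: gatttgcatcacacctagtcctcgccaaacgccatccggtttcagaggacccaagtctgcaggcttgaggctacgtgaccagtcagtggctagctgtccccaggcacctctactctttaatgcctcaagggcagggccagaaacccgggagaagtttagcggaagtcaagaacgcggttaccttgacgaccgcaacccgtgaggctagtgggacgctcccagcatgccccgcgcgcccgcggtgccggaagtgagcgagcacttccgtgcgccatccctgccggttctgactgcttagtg
Psma5: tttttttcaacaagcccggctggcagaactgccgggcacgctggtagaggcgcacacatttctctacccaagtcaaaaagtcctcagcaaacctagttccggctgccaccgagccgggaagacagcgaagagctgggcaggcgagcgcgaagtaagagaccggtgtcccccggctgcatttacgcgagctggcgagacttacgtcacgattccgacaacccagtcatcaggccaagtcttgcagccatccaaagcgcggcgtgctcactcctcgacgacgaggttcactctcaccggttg
Psmd14: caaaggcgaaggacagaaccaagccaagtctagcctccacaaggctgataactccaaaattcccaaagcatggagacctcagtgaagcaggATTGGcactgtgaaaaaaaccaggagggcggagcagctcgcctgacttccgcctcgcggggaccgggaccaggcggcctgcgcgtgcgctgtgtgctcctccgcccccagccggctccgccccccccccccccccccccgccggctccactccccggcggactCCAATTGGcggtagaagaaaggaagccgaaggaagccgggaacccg
Psmb5: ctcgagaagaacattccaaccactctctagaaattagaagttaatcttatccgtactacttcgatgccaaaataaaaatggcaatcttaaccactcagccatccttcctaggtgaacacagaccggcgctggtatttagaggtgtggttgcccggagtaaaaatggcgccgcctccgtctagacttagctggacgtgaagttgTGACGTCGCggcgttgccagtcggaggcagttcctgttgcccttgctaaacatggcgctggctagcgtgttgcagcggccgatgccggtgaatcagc
Psmb8: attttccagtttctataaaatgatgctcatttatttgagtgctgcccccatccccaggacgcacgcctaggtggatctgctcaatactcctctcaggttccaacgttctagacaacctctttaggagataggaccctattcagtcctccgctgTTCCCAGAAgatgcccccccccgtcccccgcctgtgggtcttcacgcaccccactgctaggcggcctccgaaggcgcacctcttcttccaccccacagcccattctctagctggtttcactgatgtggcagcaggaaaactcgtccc
The windows lie at chr7:140882144-140882443 on the plus strand for Psmd13, chr3:108256676-108256975 plus for Psma5, chr2:61711444-61711743 plus for Psmd14, chr14:54617946-54618245 minus for Psmb5 and chr17:34197945-34198244 plus for Psmb8. Psmb5 holds the antioxidant element core TGACGTCGC, starting 47 bases before the transcript start. Psmb8 holds the GAS match TTCCCAGAA at 97 bases before it. Psmd14 holds 3 CCAAT boxes, of which a pair on opposite strands overlap just after the start. The windows of Psmd13 and Psma5 hold none of the 4 motifs.

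Windows were available for 40 members, with 43 windows among them. The percentages of members are per gene, while those of all windows are per window. The antioxidant element core was in 6 of the 40 genes (15.0%), against 12.4% of all 32851 windows of the same length. The ISRE was in 4 (10%), against 3.4% of all windows, the GAS in 3 (7.5%), against 8.3%, and the CCAAT box in 14 (35%), against 37.4%. These are matches of letters in a short window. They do not show binding, and no match says nothing of sites elsewhere.

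Levels of different genes were compared per length, as TPM, which divides each count by merged exon length and scales each library to 1000000. In control livers Psmb5, the chymotrypsin-like site, was the highest member at 249 ± 24.7 TPM (SD, n = 2 here and below). Psma6 followed at 168 ± 2.13 TPM, Psmb6 at 138 ± 13.5 TPM and Psma4 at 127 ± 9.93 TPM. Psmb6 and Psma4 differed by less than the SD of Psmb6. Among the regulatory particle's genes the highest control levels were those of Psmc5 at 67.2 ± 14.8 TPM and Psmc1 at 58.8 ± 6.07 TPM, which lie within 1 SD of Psmc5 of each other. The tissue-restricted forms Psma8 (a testis alpha subunit) and Psmb11 (the thymus beta subunit) were below 1 TPM in control. Psmd8, a regulatory particle subunit, had at most 44 counts in any library.

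The comparison of SLIT2+APAP with APAP asks how SLIT2 changes the injured liver. In the main edgeR fit, with TMM scaling and all 8 libraries, members fell and none rose, led by Psmd13 and Psma5. Another scaling and some other fits gave calls in both directions. In SLIT2+APAP against APAP livers, 12 of 48 members fell and none rose (25%), at an edgeR quasi-likelihood test with Benjamini-Hochberg adjusted p under 0.05 over all genes. Over all genes tested 7.63% fell, 6.28% rose and 13.9% changed in either direction. The members' median log2 fold change was -0.44, against -0.06 over all genes, and 35 of 48 were negative. The SLIT2+APAP libraries lay below both APAP libraries for 31 members (29.4% of all genes did) and above both for 11 (28.8% of all genes). This direction depended on the scaling. With libraries scaled to their counts outside the mitochondrially encoded genes, an alternative chosen after seeing the data, 10 members were called. Of these 4 were higher (Psma4, Psma7, Psmb11 and Psme1) and 6 lower (Psma5, Psmb2, Psmd2, Psmd3, Psmd9 and Psmd13). The members' median was then -0.003 and the median of all genes shifted to 0.37. That scaling leaves out TMM, and the share of all genes called under it is not given here.

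**Figure D2:**
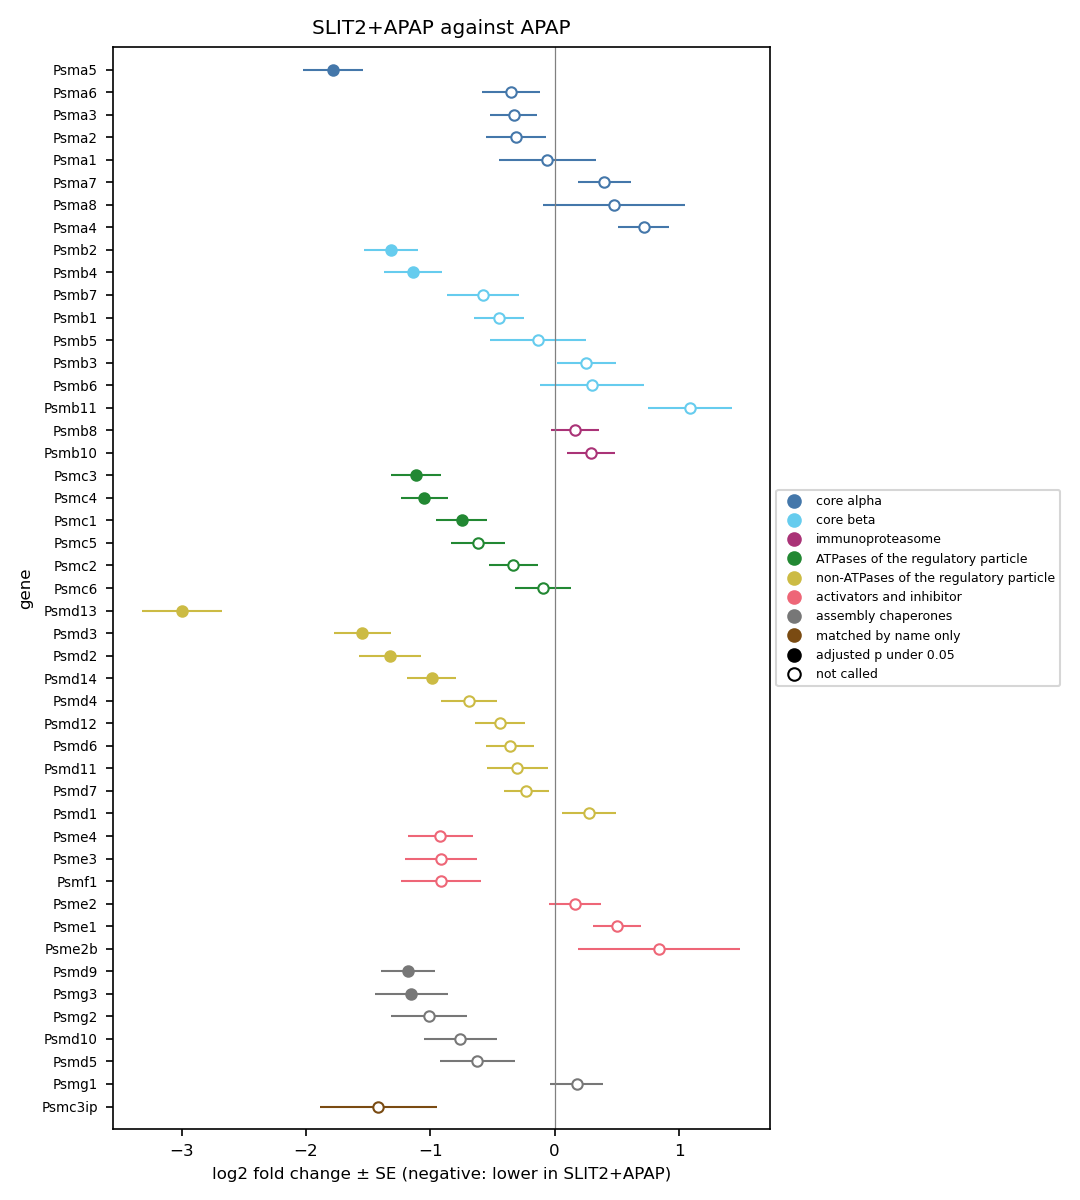
Log2 fold change of each member in SLIT2+APAP over APAP livers with its standard error (horizontal axis), grouped by role down the page and filled where the edgeR adjusted p was under 0.05; Psmd8 is left out because of its low counts. The 12 filled points all lie to the left of 0, and Psmd13 lies farthest, at -2.99.

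Psmd13, a lid subunit of the regulatory particle, had 6.20 and 6.92 CPM in SLIT2+APAP livers, against 43.7 and 60.8 CPM in APAP livers. Both SLIT2+APAP libraries were far below both APAP libraries. The log2 fold change was -2.99 ± 0.32 (SE; edgeR adjusted p = 0.004763). The gene lies at chr7:140881968-140898643 on the plus strand of GRCm38, and 342 bases (10.1%) of its exons overlap exons of Sirt3 on the other strand. Sirt3, a mitochondrial deacetylase named because of this overlap after its values were seen, had 40.04 and 31.1 CPM in SLIT2+APAP and 35.4 and 36.3 CPM in APAP livers (edgeR adjusted p = 0.9769).

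Psma5, an alpha ring subunit, had 17.4 and 12.3 CPM in SLIT2+APAP livers, against 46.5 and 55.7 CPM in APAP livers. The groups did not overlap, and the log2 fold change was -1.78 ± 0.24 (SE; edgeR adjusted p = 0.00704). Of the other 7 alpha genes none was called in the main fit, and 3 of the 8 had positive fold changes. Psma4 was the highest of these, with 189 and 209 CPM in SLIT2+APAP and 116 and 126 CPM in APAP livers (log2 fold change 0.72, edgeR adjusted p = 0.05589). DESeq2 (0.73) and the scaling outside mitochondrial genes (1.16) called Psma4 higher. That scaling also called Psma7 higher (0.84).

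The beta ring gave 2 calls of 8. Psmb2, a beta subunit with no catalytic site, had 24.2 and 21.0 CPM in SLIT2+APAP livers, against 58.0 and 54.5 CPM in APAP livers (log2 fold change -1.32 ± 0.22 SE, edgeR adjusted p = 0.01209). Psmb4, another non-catalytic beta subunit, had 69.3 and 70.4 CPM in SLIT2+APAP, against 161 and 147 CPM in APAP livers (-1.14 ± 0.23, adjusted p = 0.02108). In both genes both SLIT2+APAP libraries were below both APAP libraries. The catalytic subunits Psmb5, Psmb6 and Psmb7 were not called, with log2 fold changes of -0.13, 0.30 and -0.57. Psmb11 had the highest value of the class, 1.09, at 1.11 and 1.35 CPM in SLIT2+APAP and 0.723 and 0.447 CPM in APAP livers (edgeR adjusted p = 0.06787). DESeq2 (1.10) and the scaling outside mitochondrial genes (1.54) called it higher.

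In the ATPase ring 3 of 6 genes fell and all 6 fold changes were negative in the main fit. With scaling outside mitochondrial genes Psmc1, Psmc3 and Psmc4 were not called (-0.30, -0.69 and -0.61). Psmc2 (0.11) and Psmc6 (0.33) were then positive. Psmc3 had 49.3 and 39.6 CPM in SLIT2+APAP livers, against 95.4 and 97.3 CPM in APAP livers. Psmc4 had 46.4 and 42.8 CPM in SLIT2+APAP livers, against 96.6 and 87.9 CPM in APAP livers. Psmc1 had 72.2 and 72.6 CPM in SLIT2+APAP livers, against 135 and 108 CPM in APAP livers. The log2 fold changes were -1.12, -1.05 and -0.75 in that order, with edgeR adjusted p-values of 0.01511, 0.01537 and 0.04753. The libraries did not overlap in any of these genes. The adjusted p of Psmc1 ran from 0.009319 to 0.3478 over the alternatives. Psmc6 was nearest to 0, at -0.09.

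Among the non-ATPase subunits 4 of 11 fell, Psmd13 included. Psmd3, a lid subunit, had 27.9 and 29.1 CPM in SLIT2+APAP livers, against 94.0 and 72.6 CPM in APAP livers (log2 fold change -1.55, edgeR adjusted p = 0.009466). Psmd2, a scaffold that docks ubiquitin shuttle factors, had 45.6 and 46.0 CPM in SLIT2+APAP livers, against 92.7 and 137 CPM in APAP livers (-1.33, edgeR adjusted p = 0.01585). Both were without overlap, and APAP replicate 4 was the higher library for Psmd2 but the lower for Psmd3. Psmd14, the deubiquitinase that cleaves ubiquitin off substrates, had 20.9 and 19.3 CPM in SLIT2+APAP livers, against 42.3 and 37.6 CPM in APAP livers (-0.99, edgeR adjusted p = 0.01956). Psmd1, the other large scaffold, had the only positive value of the class in the main fit, 0.27. It had 147 and 165 CPM in SLIT2+APAP and 116 and 142 CPM in APAP livers. With scaling outside mitochondrial genes Psmd6, Psmd7, Psmd11 and Psmd12 were also positive, and Psmd14 was not called (-0.55).

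Assembly chaperones gave 2 calls of 6. Psmd9, which helps to build the ATPase base, had 17.9 and 16.0 CPM in SLIT2+APAP livers, against 40.1 and 36.7 CPM in APAP livers (log2 fold change -1.18, edgeR adjusted p = 0.01577). Psmg3, a chaperone of the alpha ring, had 3.57 and 3.62 CPM in SLIT2+APAP livers, against 6.42 and 9.55 CPM in APAP livers (-1.15, adjusted p = 0.03965). In both genes the SLIT2+APAP libraries lay below both APAP libraries. Psmg1 had the highest value of the class, 0.18. None of the 6 activators and inhibitors was called in the main fit, while the scaling outside mitochondrial genes called Psme1 higher (0.94). Psme4, an activator, Psme3, the nuclear activator, and Psmf1, an inhibitor, were at -0.921, -0.915 and -0.91, and the highest value was that of Psme2b, a single-exon near copy of Psme2, at 0.84.

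The shares of all genes given above belong to the main fit. The number of calls depended on the libraries in the fit. Without the 2 SLIT2-only libraries it was 12, with 11 lower and 1, Psma4, higher. No member was called when the fit used only the 4 libraries compared, in which 1 gene of all passed. Leaving out SLIT2+APAP replicate 1 left 1 member called and leaving out SLIT2+APAP replicate 2 left none. Leaving out control replicate 2 left 7, and leaving out APAP replicate 3 or APAP replicate 4 gave 17 each. The fold changes of the 12 called members were negative under each alternative. To the calls DESeq2 added Psma4 (0.73) and Psmb11 (1.10) as higher and Psme3, Psme4 and Psmg2 as lower. Offsets for GC content added Psme1 (0.80) as higher and Psma3 and Psme4 as lower.

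APAP alone against control asks whether the injury moved the genes. None of 48 members was called in the main edgeR fit, where 0.788% of all genes were called, 0.332% higher and 0.456% lower. Unadjusted, 7 members had p under 0.05, and DESeq2 called 1, Psma4. The members' median log2 fold change was -0.08, against 0.05 over all genes, with a range from -0.74 to 0.80. Both APAP libraries lay above both control libraries for 12 members (26.9% of all genes) and below both for 16 (26.1% of all genes). Leaving out APAP replicate 4 gave 6 calls, with Psmc1, Psmd3 and Psmf1 higher and Psma1, Psma4 and Psmg1 lower.

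The classes leaned apart without passing the test. Of the 8 alpha genes 7 had negative fold changes, while 8 of 11 non-ATPase and 4 of 6 ATPase genes had positive ones. Among these the libraries of the groups overlapped for Psma8, Psmc5, Psmd1, Psmd2, Psmd4, Psmd8, Psmd11 and Psmd13. Psmd1 was at 0.02, and no share of signs over all genes is given here. Psma4, lowest of the alpha genes, had 116 and 126 CPM in APAP and 199 and 206 CPM in control livers (log2 fold change -0.74, edgeR adjusted p = 0.09507). Psma5 was the only alpha gene with a positive value, 0.29. Psmb7 was lowest among beta genes at -0.61 and Psmb4 highest at 0.34. Psmc1, highest of the ATPases, had 135 and 108 CPM in APAP and 73.5 and 78.6 CPM in control livers (0.68, edgeR adjusted p = 0.1066), and Psmc6 was lowest at -0.64. Psmd3, highest of the non-ATPases, had 94.0 and 72.6 CPM in APAP and 49.0 and 51.0 CPM in control livers (0.74, edgeR adjusted p = 0.1106), and Psmd6 was lowest at -0.46. Psmf1 was highest of the activators and inhibitors at 0.80 and Psme1 lowest at -0.31. Psmd9 led the chaperones at 0.57 and Psmg1 was lowest at -0.43.

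The balance between the 2 particles was taken in each library. Summed TPM of the ATPase and non-ATPase genes per summed TPM of the alpha and beta genes was 0.442 and 0.445 in SLIT2+APAP, 0.636 and 0.605 in APAP, 0.837 and 1.08 in SLIT2, and 0.458 and 0.475 in control. APAP livers were above control livers in both libraries, SLIT2+APAP livers lay just below control, and SLIT2 livers were highest. The regulatory sum was 746 and 811 TPM in APAP and 563 and 653 TPM in control livers. The core sum was 1173 and 1340 TPM in APAP and 1229 and 1374 TPM in control livers, so the core overlapped and the regulatory sum did not. In SLIT2 livers both sums were below control, the regulatory sum at 258 and 191 TPM and the core sum at 308 and 176 TPM. TPM is scaled over all genes, and the mitochondrially encoded ones took 60.2% and 69.0% of the counts in SLIT2 libraries. As a share of the other counts, all members were at 0.375% and 0.346% in SLIT2, against 0.358% and 0.406% in control livers. No test was made of these ratios, for the reason given above.

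SLIT2 alone against control gave the most calls, but the calls, and the sign of some members, depended on how libraries were scaled. Under TMM scaling 38 of 48 members fell and 2 rose, where 54.9% of all genes were called, 27.6% lower and 27.3% higher. Scaling to counts outside the mitochondrially encoded genes, without TMM, left 17 lower and 8 higher. The share of all genes called under that scaling is not given here. Under TMM the members' median log2 fold change was -1.76, against -0.01 over all genes. Under the other scaling it was -0.41, while the median of all genes was 1.35. Of the 40 members called under TMM, 19 were called in the same direction under the other scaling, and 6 changed sign. Both SLIT2 libraries lay below both control libraries for 43 members (41.4% of all genes) and above both for 5 (41.2% of all genes).

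**Figure D3:**
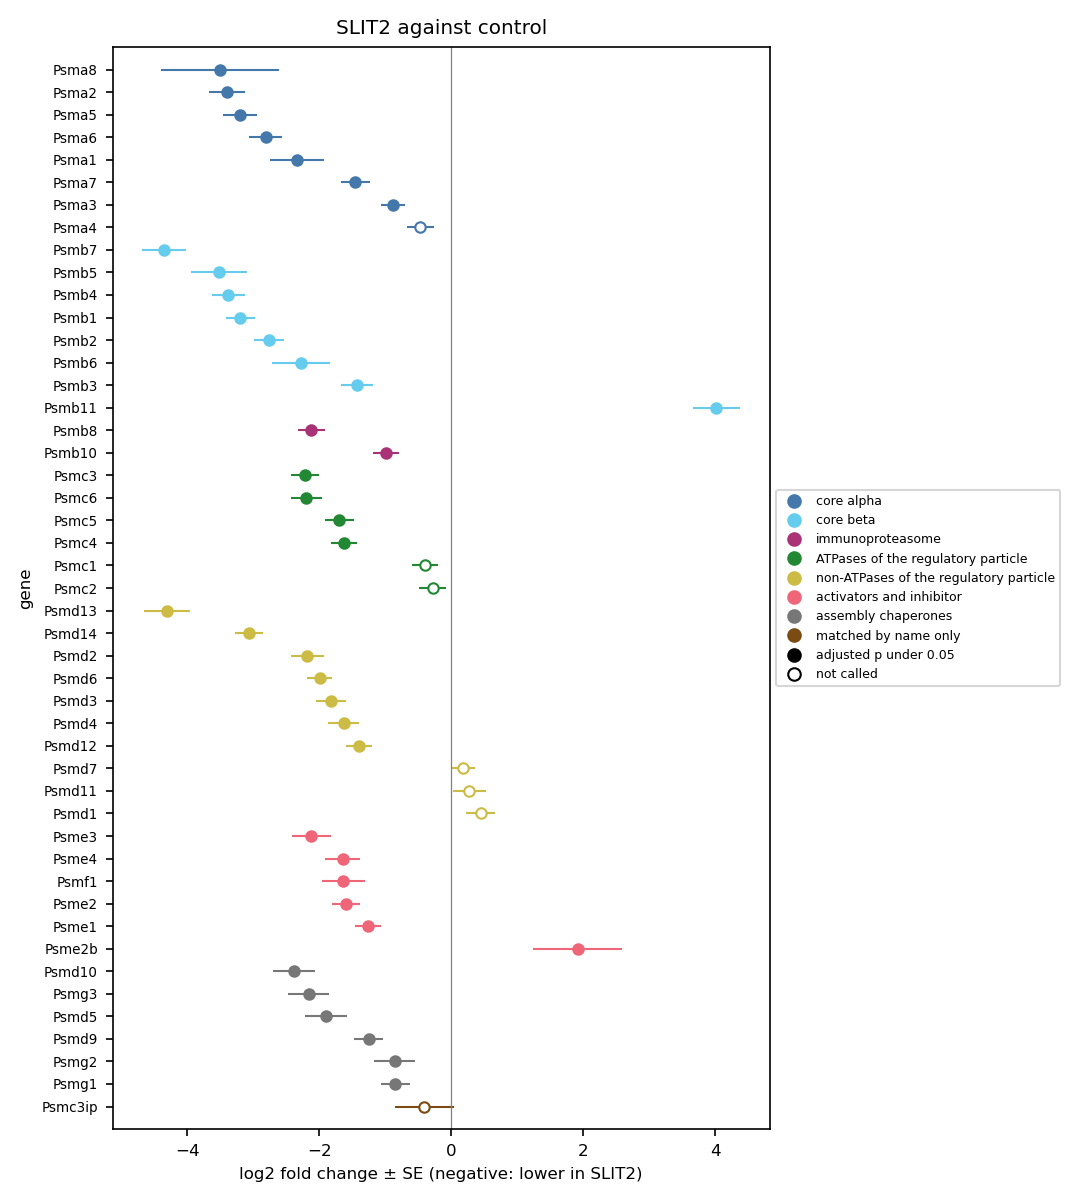
Log2 fold change of each member in SLIT2 over control livers under TMM scaling with its standard error (horizontal axis), grouped by role down the page and filled where the edgeR adjusted p was under 0.05; Psmd8 is left out. Most points lie left of 0, while Psmd1, Psmd7 and Psmd11 lie just right of it and Psmb11 farthest right at 4.02.

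Median log2 fold changes under TMM were -2.58 for alpha and -2.98 for beta genes, -1.66 for ATPases and -1.82 for non-ATPases. Among beta genes 7 of 8 fell and Psmb11 rose under TMM, and 7 of 8 alpha genes fell, of which Psma3 turned positive under the other scaling. Psmb7, the trypsin-like site, fell to 11.4 and 6.32 CPM in SLIT2 livers, against 186 and 177 CPM in control livers (log2 fold change -4.35, edgeR adjusted p = 0.0001007). Among members called lower this was the lowest fold change. Psmb5 fell to 18.9 and 7.12 CPM in SLIT2 livers, against 145 and 154 CPM in control livers (-3.52, edgeR adjusted p = 0.0003703). The 2 SLIT2 libraries differed by more than the control libraries in Psmb5, yet neither came near them. Psmb1, a beta subunit, had 22.5 and 19.1 CPM in SLIT2, against 196 and 186 CPM in control livers (-3.20, edgeR adjusted p = 9.873e-05). Psma2, an alpha subunit, had 11.8 and 7.95 CPM in SLIT2, against 98.8 and 109 CPM in control livers (-3.40, edgeR adjusted p = 0.0001028). Psma5 had 4.94 and 4.13 CPM in SLIT2, against 41.3 and 42.5 CPM in control livers (-3.21, edgeR adjusted p = 0.0001028). Psma4 was the alpha gene that was not called, with 159 and 133 CPM in SLIT2 and 199 and 206 CPM in control livers. Psma8 had at most 0.737 CPM in any library and its call (-3.51) rests on very few counts.

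The other called genes of the core are given with their log2 fold changes under TMM. Of these, Psma1, Psma3, Psma7, Psmb3 and Psmb6 were not called under the scaling outside mitochondrial genes. Psma6 had 23.1 and 16.5 CPM in SLIT2, against 143 and 135 CPM in control livers (-2.81). Psma1 had 17.4 and 12.8 CPM in SLIT2, against 83.4 and 70.0 CPM in control livers (-2.34). Psma7 had 50.1 and 39.1 CPM in SLIT2, against 113 and 131 CPM in control livers (-1.45). None of these alpha genes overlapped between the groups. Psma3 had 69.9 and 68.2 CPM in SLIT2, against 129 and 125 CPM in control livers (-0.88). Psmb4 had 13.96 and 9.45 CPM in SLIT2, against 118 and 126 CPM in control livers (-3.38). Psmb2 had 7.55 and 5.72 CPM in SLIT2, against 42.0 and 48.1 CPM in control livers (-2.76). Psma3 had the smallest of these changes. Psmb6, the caspase-like site, had 52.9 and 18.3 CPM in SLIT2, against 168 and 178 CPM in control livers (-2.28). Psmb3, a beta subunit with no catalytic site, had 62.8 and 43.1 CPM in SLIT2, against 135 and 151 CPM in control livers (-1.43). In Psmb6 the SLIT2 libraries were far apart, as in Psmb5, but both lay below control.

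The regulatory particle was split. Psmd13 had 2.95 and 1.85 CPM in SLIT2, against 56.3 and 38.9 CPM in control livers (log2 fold change -4.31, edgeR adjusted p = 0.0001028). Psmd14 had 6.09 and 5.18 CPM in SLIT2, against 44.4 and 49.6 CPM in control livers (-3.06, edgeR adjusted p = 9.873e-05). Both were far below every control library. Beside them stood subunits that were not called under TMM: Psmd1 with 175 and 173 CPM in SLIT2 and 115 and 141 CPM in control livers, and Psmd7, the lid partner of Psmd14, with 51.5 and 50.9 CPM in SLIT2 and 47.6 and 42.8 CPM in control livers. Psmd11, which clamps the lid to the core, had 109 and 93.8 CPM in SLIT2 and 83.4 and 84.5 CPM in control livers. These 3 lay above both control libraries. Under the scaling to counts outside mitochondrial genes they were called higher, at 1.80, 1.54 and 1.63, as were Psma4, Psmc1 and Psmc2. Psmc3 (-2.22, edgeR adjusted p = 0.0001507) and Psmc6 (-2.20, edgeR adjusted p = 0.0002352) were the lowest of the 4 ATPases called under TMM.

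The other called genes of the regulatory particle lay between these extremes. Under the scaling outside mitochondrial genes Psmd2 and Psmd6 stayed called lower, while Psmd3, Psmd4, Psmd12, Psmc4 and Psmc5 were not called. Psmd2 had 24.9 and 19.6 CPM in SLIT2, against 102 and 100.1 CPM in control livers (-2.18). Psmd6, a lid subunit, had 23.0 and 21.9 CPM in SLIT2, against 89.9 and 89.7 CPM in control livers (-1.998). Psmd3 had 16.2 and 12.04 CPM in SLIT2, against 49.0 and 51.0 CPM in control livers (-1.82). The SLIT2 libraries were below control in each of them. Psmd4, a ubiquitin receptor, had 36.9 and 29.4 CPM in SLIT2, against 93.3 and 112 CPM in control livers (-1.63). Psmd12, a lid subunit, had 32.6 and 30.5 CPM in SLIT2, against 83.3 and 83.2 CPM in control livers (-1.40). Among the ATPases, Psmc4 and Psmc5 were the others called. Psmc5 had 21.1 and 17.5 CPM in SLIT2, against 55.2 and 69.8 CPM in control livers (-1.70). Psmc4 had 22.01 and 24.3 CPM in SLIT2, against 67.8 and 74.9 CPM in control livers (-1.62).

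For Psmd8 the SLIT2 libraries held 0 counts, against 35 and 8 counts in control livers. With the group's floor set at 3 counts it was at least 10.3-fold below the control mean. This bound covers counting error only, and the control libraries differed, at 0.417 and 0.0841 CPM. The 2 SLIT2+APAP libraries held 0 and 44 counts, so a 0 also arose beside a higher count within 1 group. Psmd8 was not called in the main fit, while DESeq2 called it lower (log2 fold change -6.36, DESeq2 adjusted p = 0.01003). Taking it at that bound left the median of the members at -1.76. Psmb11, by contrast, had 8.15 and 7.62 CPM in SLIT2, against 0.477 and 0.494 CPM in control livers (log2 fold change 4.02, edgeR adjusted p = 0.0001268). Psme2b, at 0.413 and 1.81 CPM in SLIT2 and 0.250 and 0.326 CPM in control livers, was the other member called higher (1.92, edgeR adjusted p = 0.04088), and 1 SLIT2 library carried most of its counts.

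Under TMM 6 of 6 chaperones and 5 of 6 activators and inhibitors fell, of which Psmd9, Psmg1, Psmg2 and Psme1 turned positive under the other scaling. Of the genes that fell, only Psmd10 and Psme3 stayed called lower under that scaling. Psmd10 (gankyrin, which binds an ATPase during assembly) had 1.59 and 1.54 CPM in SLIT2, against 8.65 and 7.71 CPM in control livers (log2 fold change -2.38, edgeR adjusted p = 0.0005383). Psme1, a subunit of the interferon-inducible cap, had 38.5 and 40.5 CPM in SLIT2, against 86.9 and 102 CPM in control livers (-1.26, edgeR adjusted p = 0.001179). Its partner Psme2 had 29.3 and 26.2 CPM in SLIT2, against 79.6 and 87.4 CPM in control livers (-1.59, edgeR adjusted p = 0.0005669). Both SLIT2 libraries were below both control libraries in these 3 genes. The remaining called genes of these classes were as follows. Psme3 had 7.79 and 4.24 CPM in SLIT2, against 25.5 and 26.9 CPM in control livers (-2.12). Psme4 had 23.5 and 16.9 CPM in SLIT2, against 72.6 and 53.7 CPM in control livers (-1.64). Psmf1 had 6.33 and 5.03 CPM in SLIT2, against 17.8 and 17.6 CPM in control livers (-1.64). No SLIT2 library reached the control range in these activators and in the inhibitor. Psmd5, a chaperone of the ATPase base, had 2.70 and 3.66 CPM in SLIT2, against 12.03 and 11.7 CPM in control livers (-1.90). Psmg3 had 1.59 and 2.19 CPM in SLIT2, against 7.64 and 9.28 CPM in control livers (-2.16). Psmd9 had 12.4 and 9.29 CPM in SLIT2, against 27.5 and 24.2 CPM in control livers (-1.25). Psmd9 had the smallest fold change of these 6 genes. Psmg1, a chaperone of the alpha ring, had 9.41 and 9.58 CPM in SLIT2, against 16.1 and 18.2 CPM in control livers (-0.85). Psmg2, its partner, had 4.23 and 6.72 CPM in SLIT2, against 10.4 and 9.45 CPM in control livers (-0.86). For the called members given above without a p in SLIT2 against control, edgeR adjusted p-values ran from 0.0001006 (Psmb4) to 0.0444 (Psmg2).

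Across the 43 members at or above 5 CPM in control, the spread of the log2 ratio to the control mean was 0.557 and 0.597 in SLIT2+APAP, 0.505 and 0.358 in APAP, and 1.03 and 1.22 in SLIT2 (SD over genes), and the control libraries scattered by 0.090 and 0.093 about their own mean. Over all 8045 genes of that level the SDs were 0.666 and 0.718 in SLIT2+APAP, 0.999 and 0.685 in APAP, 1.31 and 1.49 in SLIT2, and 0.159 and 0.212 in control, larger than the members' in each library. Among the members, transcript length and the SLIT2 effect without APAP had a Pearson r of 0.151 and GC content an r of -0.045. These points share libraries and are given without a test. Merged exon length had a Spearman rho of 0.148 among the 43 members and 0.431 among 7988 genes of that level with a length.

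SLIT2+APAP against control sets the treated injury beside PBS control liver. Here 3 of 48 members fell and none rose, where 2.14% of all genes were called, 1.45% lower and 0.693% higher. The members' median log2 fold change was -0.56, against 0.04 over all genes, and 39 of 48 were negative. Both SLIT2+APAP libraries lay below both control libraries for 34 members (32.3% of all genes) and above both for 5 (35.2% of all genes). Psma5 had 17.4 and 12.3 CPM in SLIT2+APAP, against 41.3 and 42.5 CPM in control livers (-1.50 ± 0.24 SE, edgeR adjusted p = 0.0324). Psmd13 had 6.20 and 6.92 CPM in SLIT2+APAP, against 56.3 and 38.9 CPM in control livers (-2.86 ± 0.32, edgeR adjusted p = 0.02213). Psmd14 had 20.9 and 19.3 CPM in SLIT2+APAP, against 44.4 and 49.6 CPM in control livers (-1.23 ± 0.20, edgeR adjusted p = 0.03248). All 3 were clear of the control libraries. The share of 2.14% belongs to the main fit, and the counts under other fits have no such share beside them here. The count was 29 (27 lower, 2 higher) with only the 4 libraries compared, 17 in DESeq2 and 0 without the 2 SLIT2-only libraries. Without either SLIT2+APAP library it was also 0, as without either SLIT2 library or control replicate 1, and it was 1 without control replicate 2 and 20 without APAP replicate 3 or APAP replicate 4. With library totals outside the mitochondrial genes 2 members, Psma5 and Psmd13, were lower and 1, Psmb11, was higher (1.86). The members' median was then -0.05 against 0.55 over all genes.

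The effect of SLIT2 with APAP differed from that without APAP for 27 members in a test of the interaction, where 28.8% of all genes were called (15.5% higher, 13.4% lower). The difference was positive for 26, meaning that the log2 effect of SLIT2 was less negative, or positive, in APAP livers, and negative for Psmb11. With scaling outside mitochondrial genes 11 were positive and 6 negative (Psmb11, Psmc1, Psmc2, Psmd1, Psmd7 and Psmd11), and 12 of the calls were shared. The 28.8% of all genes belongs to the main fit. The core held most of the positive calls, with 7 of 8 alpha and 7 of 8 beta genes, beside 3 of 6 ATPases and 3 of 11 non-ATPases. Psmb7 differed by 3.78 (edgeR adjusted p = 0.003271), with a fold change of -0.57 in APAP livers and -4.35 without APAP. Psmb5 differed by 3.39 (edgeR adjusted p = 0.006817), with -0.13 and -3.52 in the same order. Psmd13 had the lowest fold change in APAP livers and differed by 1.31 (edgeR adjusted p = 0.05281). Leaving out SLIT2+APAP replicate 1 gave 14 calls, control replicate 1 gave 16 and control replicate 2 gave 14.

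SLIT2 against control and SLIT2+APAP against APAP share no library, so their fold changes can be set side by side. Over the 43 members Pearson's r was 0.454 and Spearman's rho 0.383, and over all 8045 genes of that level r was 0.339 and rho 0.342. These points share depth and treatment, and no test was made. Psmd13 and Psma5 lay low in both.

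**Figure D4:**
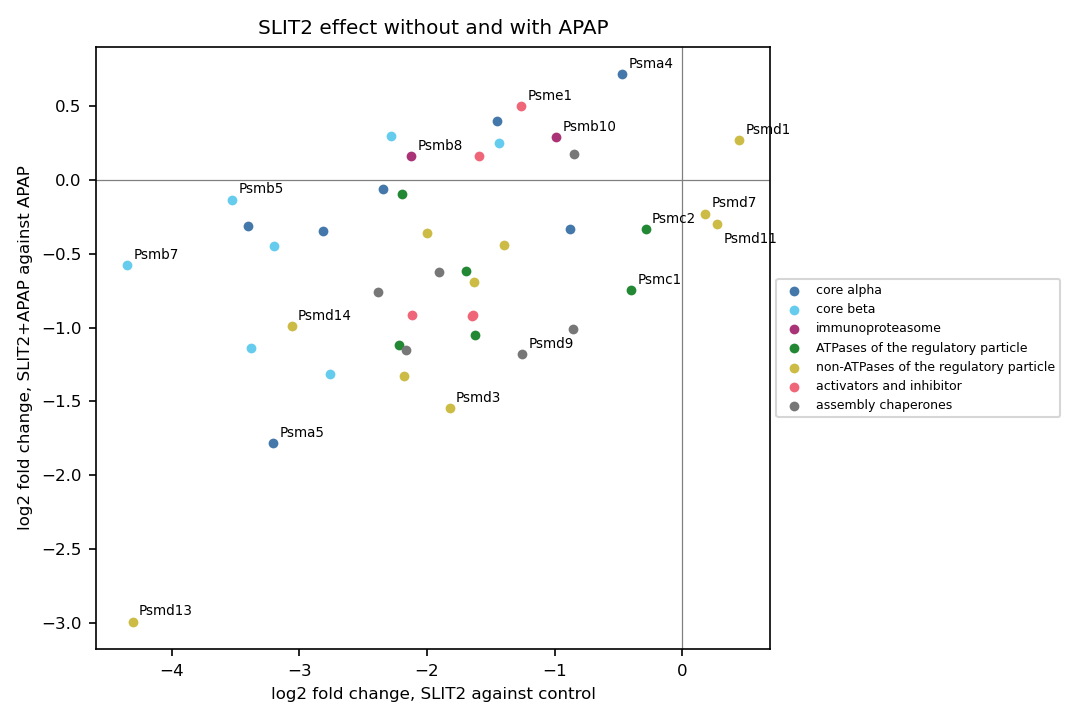
Log2 fold change of SLIT2 over control (horizontal axis) against SLIT2+APAP over APAP (vertical axis), 1 point per member at or above 5 CPM in control, coloured by class. The points lean upward (Pearson r = 0.454 over 43 members), with Psmd13 at the lower left.

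The inducible subunits were set against the constitutive subunits they replace. Psmb8 had 28.5 and 29.0 CPM in SLIT2+APAP, 25.9 and 25.5 CPM in APAP, 5.49 and 6.77 CPM in SLIT2 and 27.5 and 25.9 CPM in control livers. It fell in SLIT2 (log2 fold change -2.12, edgeR adjusted p = 0.000155), as did Psmb10 at -0.99 (edgeR adjusted p = 0.003481), which turned to 0.37 under the scaling outside mitochondrial genes, and neither was called in the other comparisons of 2 groups. Psmb10 had 34.97 and 34.6 CPM in SLIT2+APAP, 26.5 and 30.4 CPM in APAP, 14.2 and 13.2 CPM in SLIT2 and 25.1 and 29.3 CPM in control livers. Psmb8, as a share of Psmb8 and Psmb5 together (per length), was 6.36% and 6.53% in SLIT2+APAP, 5.53% and 5.12% in APAP, 7.17% and 20.2% in SLIT2, and 4.79% and 4.27% in control. Psmb10, as a share of Psmb10 and Psmb7, was 44.2% and 49.5% in SLIT2+APAP, 30.8% and 34.0% in APAP, 71.3% and 80.8% in SLIT2, and 21.3% and 24.9% in control. In SLIT2 livers both genes of this pair were below control, Psmb7 by more than Psmb10. SLIT2 libraries were highest and control libraries lowest in both pairs, and the 2 SLIT2 libraries differed widely for Psmb8. No test was made of the shares, and Psmb9 was not analysed here.

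**Figure D5:**
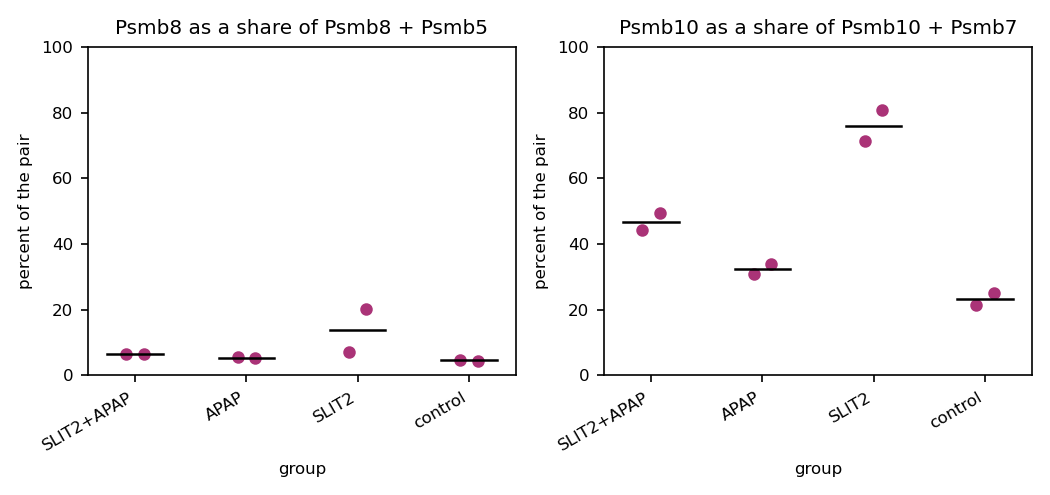
Share of the inducible subunit in its pair, in percent of the summed level per length (vertical axis from 0 to 100), in each library by group, with bars at group means, for Psmb8 with Psmb5 and Psmb10 with Psmb7. Control libraries are lowest in both pairs, and SLIT2 libraries reach 20.2% and 80.8%.

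Genes around the proteasome that carry other names were set beside the members for the same comparisons, under TMM scaling only. In SLIT2+APAP against APAP 9 of 25 fell and none rose, where 7.63% of all genes fell and 6.28% rose. Nploc4, a cofactor of the segregase Vcp, had 15.2 and 15.8 CPM in SLIT2+APAP, against 54.3 and 46.8 CPM in APAP livers (log2 fold change -1.70, edgeR adjusted p = 0.005447). Vcp, which extracts ubiquitinated proteins, had 149.7 and 146 CPM in SLIT2+APAP, against 238 and 309 CPM in APAP livers (-0.88, edgeR adjusted p = 0.0396). The ubiquitin-activating enzyme Uba1 (-1.33, edgeR adjusted p = 0.01562) and the ubiquitin receptor Adrm1 (-1.03, edgeR adjusted p = 0.0167) were among them, as were Ufd1, Zfand2a and Ubb, which encodes ubiquitin. Ubb had 261 and 189 CPM in SLIT2+APAP, against 1317 and 618 CPM in APAP livers, and the 2 APAP libraries were far apart. In APAP against control none of the 25 was called, where 0.788% of all genes were. In SLIT2 against control 17 of them fell and none rose, where 27.6% of all genes fell and 27.3% rose. Pomp, which matures the core, had 10.5 and 8.998 CPM in SLIT2, against 129 and 123 CPM in control livers (-3.69, edgeR adjusted p = 9.873e-05).

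Under TMM scaling, of 10 genes for the transcription of the family and the processing of NRF1, Nfe2l1, which encodes NRF1, was not called in any comparison. It had 75.5 and 67.6 CPM in SLIT2+APAP, 36.0 and 59.7 CPM in APAP, 64.2 and 55.5 CPM in SLIT2 and 58.0 and 50.3 CPM in control livers. Mafg, a partner of NRF1 and NRF2, rose in SLIT2 at 279 and 301 CPM, against 43.1 and 60.6 CPM in control livers (log2 fold change 2.48, edgeR adjusted p = 0.0001556), and the deglycosylase Ngly1 fell (-1.43, edgeR adjusted p = 0.0023). Maff, another partner, fell in SLIT2+APAP against APAP (-5.46, edgeR adjusted p = 0.02376), where the APAP libraries were at 118 and 6.92 CPM and so differed widely. Of 12 antigen presentation genes none was called in SLIT2+APAP against APAP, where 13.9% of all genes were. In SLIT2 against control, where 27.6% of all genes fell and 27.3% rose, 6 fell, with Pdia3 at -3.48 (edgeR adjusted p = 0.0001625), and Nlrc5 rose (1.63, edgeR adjusted p = 0.005986).

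Some counts are uncertain. Exons of 14 members overlap those of another gene, 11 of them on the opposite strand and 4 on the same strand, and the strand setting of the counting is not stated. Psme2b and pseudogene copies of Psmb5 and Psmb7 share sequence with their parents, so reads could be split between them.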

How the data were processed

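The authors deposited whole-number counts per Ensembl gene for 8 liver libraries, 2 per group, made with a directional kit, per the labels' protocols. Per the submitters' processing notes, the tools were STAR (2.5.4), Cufflinks and Cuffdiff (2.2.1), on the build mm10. How counts were made, from which annotation, with which strand setting and with what treatment of multi-mapped reads is not given in the sources used here. Large counts may be rounded, since 72 of the 93 values at or above 1000000 end in 0.

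Symbols, lengths and positions came from the GENCODE annotation on GRCm38 (22341 of 23006 identifiers, 97.1%) and promoter windows from RefSeq. The members and gene lists were chosen with earlier results of these data known. Genes were filtered with filterByExpr, scaled by TMM and tested in R 4.3.3 with edgeR 4.0.16 (quasi-likelihood, robust, 1 mean per group over all 8 libraries, 4 residual degrees of freedom), with Benjamini-Hochberg adjustment over 16876 genes and a threshold of 0.05. The script was tested on simulated data. CPM used TMM-scaled library sizes, and TPM used merged exon length. The floor of 3 counts covers counting error only, as reads carry no molecular identifiers.

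Named with values were members called in a comparison, the inducible subunits and their counterparts, and the highest and lowest member of each class in SLIT2+APAP against APAP and in APAP against control, with the rest by range and count. Psmb9 and Psmg4 were not analysed here. Replicate numbers do not pair the samples, since no label says so and the correlations of deviations were 0.075, -0.071 and -0.015. DESeq2 1.42.0 was 1 alternative beside those in the closing section. A few genes of the lists around the proteasome are counted but not reported by name here.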

Additional observations from a re-analysis of the deposited data

Results flagged for a closer look

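The test of the difference itself (the interaction, SLIT2 over no SLIT2 with APAP minus the same without APAP, edgeR adjusted p under 0.05) picked out 27 members, given as log2 differences. In the alpha ring these were Psma1 at 2.29, Psma2 at 3.09, Psma4 at 1.19, Psma5 at 1.42, Psma6 at 2.46, Psma7 at 1.85 and Psma8 at 3.99. In the beta ring they were Psmb1 at 2.75, Psmb2 at 1.45, Psmb3 at 1.69, Psmb4 at 2.24, Psmb5 at 3.39, Psmb6 at 2.58, Psmb7 at 3.78 and Psmb11 at -2.93. The inducible subunits Psmb8 and Psmb10 were at 2.29 and 1.28. In the regulatory particle they were Psmc3 at 1.10, Psmc5 at 1.08, Psmc6 at 2.104, Psmd6 at 1.64, Psmd12 at 0.96 and Psmd14 at 2.07. The others were the activators Psme1 at 1.77 and Psme2 at 1.75 and the chaperones Psmd10 at 1.62 and Psmg1 at 1.03. These values mix both SLIT2 effects, and the SLIT2 libraries, with the highest mitochondrial shares, enter each of them.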

How the results depend on the processing

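In SLIT2+APAP against APAP the count of 12 members became 7 with library totals only and 0 with only the 4 libraries compared, and ran from 0 to 17 when 1 library was left out. In APAP against control DESeq2 called 1, and leaving out 1 library gave 0 to 6. In SLIT2 against control the 40 became 25 under totals outside the 13 mitochondrially encoded genes, an alternative chosen after seeing the data, and leaving out 1 library gave 35 to 42. Under it Psma3 (0.48), Psmb10 (0.37), Psmd9 (0.11), Psme1 (0.10), Psmg1 (0.51) and Psmg2 (0.52) turned positive. In SLIT2+APAP against control the 3 became 17 in DESeq2, 1 with library totals, 29 with only the 4 libraries and 0 without the 2 SLIT2-only libraries, and leaving out 1 library gave 0 to 20. For the interaction the 27 became 17 under totals outside the mitochondrial genes, and leaving out 1 library gave 14 to 34. With the replicate block, fitted although the numbers do not pair the samples, SLIT2 against control gave 40 and SLIT2+APAP against control 22. Shares of all genes called are given for the main fit only, so the counts under the alternatives have none to set beside them. The cause was not tested for any of these. With 2 libraries a group, a p that misses the threshold does not show that a gene did not change.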
